A study of Mus musculus with 23 samples.

Results

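The genes described here encode inhibitors of MAP kinase signalling: the MAP kinase phosphatases Dusp1, Dusp2, Dusp4, Dusp5, Dusp6 and Dusp10, the Sprouty genes Spry1 and Spry2, and the Sprouty-related genes Spred1 and Spred2. They were taken by gene symbol, and each had 1 row, so that the set holds 10 of the 21900 genes in the table of counts. MAP kinases (ERK, p38 and JNK) are switched on when a kinase phosphorylates a threonine and a tyrosine in their activation loop, and the DUSP phosphatases switch them off by removing both phosphates. Sprouty and Spred proteins act further upstream, on the steps between the receptor, RAS and RAF. In T cells ERK lies downstream of the antigen receptor, and many of these inhibitors are themselves transcribed in response to ERK or p38 activity, which makes them a negative feedback as well as a readout of signalling.

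The cells were OT-I cells and OT-II cells, adoptively transferred into C57BL/6 mice. The former belong to the CD8 and the latter to the CD4 lineage of T cells, and both carry a transgenic receptor specific for ovalbumin (OVA). At 1 day after transfer the mice were given saline, A8B1-OVA (1 ug), free OVA in a molar-equivalent dose or free OVA in a higher dose, and 5 days after transfer the cells were sorted from spleens and lymph nodes. Each library holds the RNA of 3 mice, there were 3 libraries in each of the 8 groups except 2 (replicates 2 and 3) for OT-II cells with higher-dose OVA, and no label ties the pools of a group to separate experiments, so p-values measure only the spread between pools. The sources used here give neither the age of the mice nor what A8B1 is, and the numbers 0.5 and 5 in the titles of the OVA groups carry no unit. The series title names the targeting of erythrocytes and T cell anergy, a state of poor response to antigen.

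The promoters of the 5 genes called against saline in at least 1 cell type are shown because 4 of these genes were called in both, with the sequences taken from RefSeq (build GRCm38.p6, 5′ to 3′ on the strand of the gene). Promoters of 9 of the 10 genes were found there, and Dusp4 had none. Each window runs over the 250 bases before the RefSeq start of transcription, or less where a GENCODE M21 exon of the gene begins earlier. Capitals mark matches on either strand to the short form TGACG of a cAMP response element (CRE), a full CRE TGACGTCA (which contains the short form on each strand), an AP-1 site TGANTCA, an EGR site GCGTGGGCG or GCGGGGGCG, an ETS site CCGGAA, a CArG box, which serum response factor binds, and the core GGAAA bound by NFAT and ETS factors.
Spry1, chr3:37639697-37639946 on the plus strand: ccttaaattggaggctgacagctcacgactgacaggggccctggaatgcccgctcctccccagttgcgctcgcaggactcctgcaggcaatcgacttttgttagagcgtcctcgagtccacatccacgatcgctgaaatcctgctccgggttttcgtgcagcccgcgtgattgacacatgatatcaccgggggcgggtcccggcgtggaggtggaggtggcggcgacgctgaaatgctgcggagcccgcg
Dusp6, chr10:99262981-99263230 on the plus strand: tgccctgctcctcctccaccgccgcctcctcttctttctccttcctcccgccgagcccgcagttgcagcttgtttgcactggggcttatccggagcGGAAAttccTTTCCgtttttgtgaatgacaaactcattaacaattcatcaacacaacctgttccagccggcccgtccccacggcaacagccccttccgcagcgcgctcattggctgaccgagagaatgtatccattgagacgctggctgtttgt
Dusp5, chr19:53528895-53529108 on the plus strand: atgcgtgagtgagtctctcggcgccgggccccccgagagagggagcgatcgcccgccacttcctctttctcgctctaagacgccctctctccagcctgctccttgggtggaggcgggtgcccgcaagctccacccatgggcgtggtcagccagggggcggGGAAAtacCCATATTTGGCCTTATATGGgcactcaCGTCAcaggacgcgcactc
Dusp10, chr1:184034131-184034380 on the plus strand: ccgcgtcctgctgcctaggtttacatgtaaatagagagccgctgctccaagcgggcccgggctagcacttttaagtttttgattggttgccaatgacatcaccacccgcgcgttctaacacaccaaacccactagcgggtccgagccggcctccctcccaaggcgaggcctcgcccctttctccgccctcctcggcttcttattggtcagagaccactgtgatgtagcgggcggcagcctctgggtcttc
Dusp1, chr17:26508520-26508722 on the minus strand: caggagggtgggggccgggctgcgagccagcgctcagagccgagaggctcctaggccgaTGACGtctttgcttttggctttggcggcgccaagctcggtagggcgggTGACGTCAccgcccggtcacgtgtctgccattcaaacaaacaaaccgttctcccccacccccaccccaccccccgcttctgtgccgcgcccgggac

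Dusp5 held 2 adjoining CArG boxes that begin 82 and 72 bases before the RefSeq start, a short CRE at 55 bases and a GGAAA at 90 bases. Dusp1 held a full CRE at 143 bases and a further short CRE at 191 bases. Dusp6 held only 2 GGAAA cores, at 154 and 145 bases, and none of the 7 motifs occurred in the windows of Spry1 and Dusp10. Among the genes not printed, Dusp2 held an EGR site at 98 bases, Spred2 1 GGAAA, Spred1 2 GGAAA cores and Spry2 3. A short CRE of Spred2 at 51 bases lies past the point where its window stops at a GENCODE exon. The shares that follow come from windows that were not cut at exons, so the shortened windows of Dusp1, Dusp5 and Spred2 are not of like length. Of 32851 RefSeq promoter windows of 250 bases, 1.467% held a CArG box, 1.546% a full CRE, 17.765% a short CRE, 3.059% an EGR site and 55.566% a GGAAA, while an AP-1 site was in 6.749% and the ETS site in 12.03%. A match is only a description of the letters. The RefSeq starts used for Dusp10, Dusp1, Dusp5 and Spred2 lie inside the longer GENCODE genes, and the distances above are counted from the RefSeq starts.

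By GENCODE M21 on GRCm38 the genes lie at chr3:37639947-37644598 (Spry1), chr10:99263231-99267489 (Dusp6), chr19:53529109-53542431 (Dusp5), chr1:184013302-184075636 (Dusp10), chr17:26505590-26562128 (Dusp1), chr2:127336159-127338376 (Dusp2), chr8:34807297-34819894 (Dusp4), chr14:105891947-105896819 (Spry2), chr2:117121374-117182279 (Spred1) and chr11:19924375-20024026 (Spred2). Exons of Dusp1, Dusp5 and Spry1 overlap those of Ergic1, AC137853.2 and Gm42922 on the opposite strand, and since the sources used here do not say whether the counting used strand, reads from such partners may be counted with these genes. Coding transcripts were also compared by words of 31 bases, without regard to strand. Words shared with another protein-coding gene made up 0.697% of Dusp10 and 0.634% of Spry2, and 0% of the other 8 genes, Dusp1 among them.

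The libraries held 26.6 to 73.5 M counts each, and 1 count is far below the levels of the genes discussed except Spry2. The labels matched the lineage markers: Cd8a and Cd8b1 summed to 2386 to 3904 CPM (counts for each M of counts in the library) in OT-I and 26.97 to 60.1 CPM in OT-II libraries, and Cd4, Zbtb7b and Cd40lg to 775 to 944 CPM in OT-II and 13.97 to 258 CPM in OT-I libraries, the highest in higher-dose OVA replicate 1 and the next at 34.3 CPM. Summed markers of myeloid and dendritic cells (18 of 19 genes measured) reached 504 CPM in OT-I saline replicate 1, 1203 CPM in replicate 2 of OT-I cells with molar-equivalent OVA and 750.0 CPM in OT-II saline replicate 1, against 109 to 166 CPM in OT-I A8B1-OVA and 113 to 188 CPM in OT-II A8B1-OVA libraries. Summed markers of B cells (14 genes) ran from 54.9 to 177 CPM apart from 710.1 CPM in the same replicate 2 and 263 CPM in OT-II molar-equivalent OVA replicate 3. Summed markers of erythroid cells (8 genes) ran from 58.95 to 1121 CPM, the highest in OT-II saline replicate 1. Summed markers of NK cells (9 genes) were 99.6 to 119 CPM after A8B1-OVA and 182 to 194 CPM after saline in OT-I cells, and 31.6 to 38.4 and 55.1 to 84.3 CPM in OT-II cells, with the highest sum, 348 CPM, in replicate 2 of OT-I cells with higher-dose OVA. Prf1 had the highest median of the 9 genes, 148 CPM over the OT-I and 41.1 CPM over the OT-II libraries. The medians of Ncr1 were 1.16 and 1.58 CPM, and Gzma reached up to 183 CPM in OT-I libraries. The NK sums therefore mainly follow Prf1 and Gzma and not the list as a whole. Of the myeloid and B cell markers only Pax5 was at 0 in any library. These 5 libraries, of which 4 stood apart by myeloid or B cell markers and 1 by Cd4, are called the libraries with raised markers below, and values without them are given where a call was lost. Beyond that, the part of these other cells in the differences was not tested. In such bulk libraries fewer cells of a type and less RNA per cell cannot be told apart.

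Per kilobase of the longest coding transcript, Dusp2 was the most abundant of the 10 genes after saline, at 221 ± 17.7 CPM per kb in OT-I and 308 ± 21.5 CPM per kb in OT-II cells (mean ± SD, n = 3). Dusp1 came next at 93.96 ± 1.28 and 219 ± 32.6 CPM per kb, followed by Dusp10 at 50.96 ± 8.21 and 95.04 ± 19.5. Dusp5 stood at 32.4 ± 7.90 and 84.95 ± 22.6 CPM per kb, and Dusp6 at 23.2 ± 2.36 and 13.6 ± 2.86. The order of these 5 was the same in both cell types, although Dusp10 and Dusp5 differed by less than their SDs in OT-II cells, and the mean ± SD of Dusp5 and Dusp6 overlapped in OT-I cells. The other 5 genes were all under 3 CPM per kb after saline. In OT-I cells Spred2 and Spred1 overlapped within their SDs, as did Dusp4 and Spry1, and in OT-II cells Spry1 and Spred2 did, as did Dusp4 and Spred1. In both, Spry2 was the lowest, at 0.138 ± 0.0728 and 0.0772 ± 0.0197 CPM per kb. From here on levels are CPM with TMM library factors, which compare libraries and not genes.

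**Figure D1:**
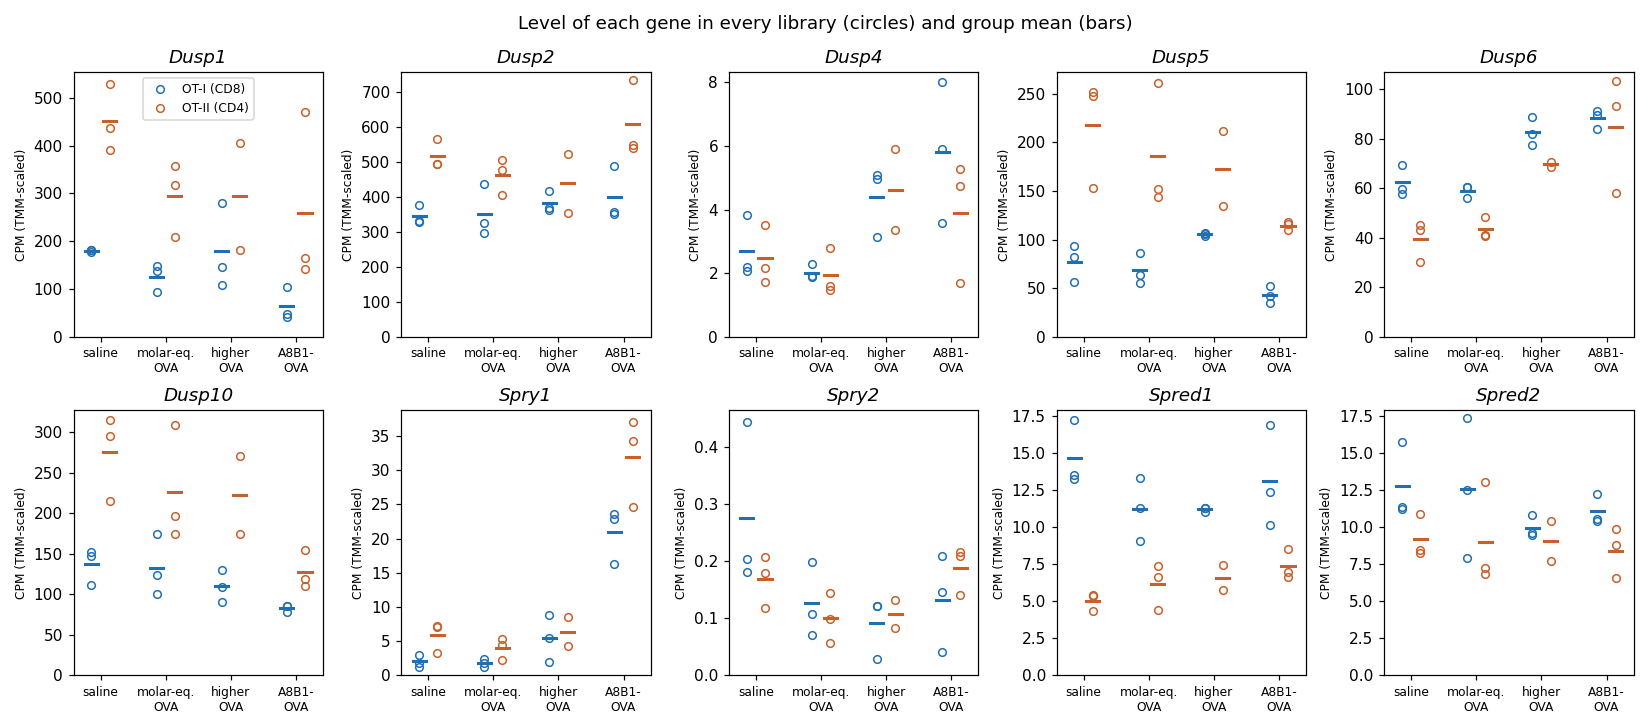
Level of each of the 10 genes (y axis, CPM with TMM factors, each panel with its own scale from 0) by treatment (x axis) in OT-I (blue) and OT-II (orange) cells; circles are libraries and bars group means. Spry1 and Dusp6 were higher and Dusp5 and Dusp10 lower after A8B1-OVA than after saline in both cell types, with no overlap between those groups.

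After A8B1-OVA, Spry1 and Dusp6 rose and Dusp5 and Dusp10 fell against saline in both cell types, and Dusp1 fell in OT-I cells. A gene is called when its edgeR adjusted p is under 0.05, adjusted over all genes tested in that cell type. In OT-I cells 5 of the 10 genes were called, 2 higher and 3 lower, where 11.5% of all 14080 tested genes were called. In OT-II cells 4 of 10 were called, 2 in each direction, against 7.28% of 14757 genes. The share of all genes whose groups do not overlap was not computed. Where a lack of overlap is given, it only describes the libraries and adds no support to a call. The median log2 difference of the 10 genes was -0.18 in OT-I and 0.20 in OT-II cells, beside -0.02 and -0.01 over all tested genes. All 10 genes passed the filter on low counts in both cell types.

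Dusp6 encodes the cytoplasmic phosphatase that acts selectively on ERK. In OT-I cells it stood at 89.5, 83.8 and 91.4 CPM in the A8B1-OVA libraries and at 59.8, 69.5 and 57.7 CPM in the saline libraries. In OT-II cells it stood at 103, 93.03 and 58.02 CPM after A8B1-OVA and at 44.97, 43.2 and 30.2 CPM after saline. Every A8B1-OVA library was above every saline library in both cell types, with A8B1-OVA replicate 3 the lowest of its group in OT-II cells. The means were 88.2 ± 3.97 against 62.3 ± 6.27 CPM in OT-I cells (SD, n = 3 each), a log2 difference of 0.50 ± 0.11 (SE; edgeR adjusted p = 0.0120). In OT-II cells they were 84.8 ± 23.8 against 39.4 ± 8.08 CPM, a difference of 1.10 ± 0.20 or 2.15-fold (adjusted p = 0.00672), and this call held in every alternative tried. The OT-I call was lost without saline replicate 1 (adjusted p = 0.0590), without saline replicate 3 (0.0742) and without the libraries with raised markers (0.0730), where the difference was 0.47.

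Free OVA was given at both doses. With molar-equivalent OVA Dusp6 stood at 55.99, 60.7 and 60.5 CPM in OT-I and 40.6, 41.1 and 48.5 CPM in OT-II cells, within or near the saline range. With higher-dose OVA it stood at 77.3, 81.9 and 88.8 CPM in OT-I and at 70.7 and 68.7 CPM in the 2 OT-II libraries, all above the saline libraries of the same cell type. That difference from saline did not pass the edgeR test, at 0.41 ± 0.11 in OT-I cells (adjusted p = 0.0889, and 0.0112 by DESeq2) and 0.82 ± 0.22 in OT-II cells (0.450). A8B1-OVA was above the molar-equivalent dose by 0.58 ± 0.11 in OT-I (0.00601) and 0.97 ± 0.20 in OT-II cells (0.0143), with no overlap. The OT-I call was lost with only these 2 groups in the fit (0.0561), and the OT-II call without A8B1-OVA replicate 1 (0.06003) or 2 (0.0535) or molar-equivalent replicate 1 (0.0658) or 2 (0.0551). The A8B1-OVA libraries overlapped those of the higher dose in both cell types, and the differences were 0.09 ± 0.11 in OT-I and 0.28 ± 0.22 in OT-II cells (adjusted p = 0.707 and 0.676).

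Dusp5, a nuclear phosphatase that acts on ERK and holds it in the nucleus, moved the other way. In OT-I cells it stood at 52.03, 34.6 and 42.4 CPM after A8B1-OVA, at 93.3, 56.2 and 81.9 CPM after saline and at 104, 107 and 106 CPM after higher-dose OVA. The A8B1-OVA libraries were the lowest of the 12 OT-I libraries and the higher-dose libraries the highest. In OT-II cells the A8B1-OVA libraries stood at 118, 109.7 and 116 CPM and the saline libraries at 248, 153 and 252 CPM, again without overlap. Against saline the difference was -0.84 ± 0.21 in OT-I cells (1.79-fold lower, adjusted p = 0.0201) and -0.93 ± 0.25 in OT-II cells (1.90-fold lower, 0.0427). The OT-I call was lost without A8B1-OVA replicate 2 (0.113), saline replicate 1 (0.0915) or saline replicate 3 (0.0790), and without the libraries with raised markers (0.0952). The OT-II call was lost without any 1 of the A8B1-OVA libraries (0.104, 0.119 and 0.0861 for replicates 1, 2 and 3), without saline replicate 1 (0.107) or 3 (0.141), and without the libraries with raised markers (0.108).

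The widest Dusp5 gap in OT-I cells lay between A8B1-OVA and higher-dose OVA, at -1.30 ± 0.21 or 2.46-fold lower (adjusted p = 0.0104, lost only without A8B1-OVA replicate 2, at 0.0669, among the alternatives tried). The molar-equivalent dose stood between them, at 85.97, 55.4 and 63.8 CPM, and A8B1-OVA differed from it by -0.67 ± 0.21 with no overlap but an adjusted p of 0.0561. In OT-II cells the molar-equivalent libraries stood at 261, 152 and 144 CPM and the higher-dose libraries at 212 and 135 CPM. All of them were above the A8B1-OVA libraries, while the differences of -0.70 ± 0.25 and -0.60 ± 0.27 did not pass the test (adjusted p = 0.126 and 0.383).

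Dusp10 encodes a phosphatase that prefers p38 and JNK over ERK and that restrains T cell cytokine production. In OT-I cells it stood at 85.2, 77.3 and 85.8 CPM after A8B1-OVA and 152, 111 and 147 CPM after saline. In OT-II cells it stood at 154, 110.4 and 118 CPM after A8B1-OVA and 316, 215 and 295 CPM after saline. The groups did not overlap in either cell type, and every saline library was the higher. The difference was -0.73 ± 0.20 in OT-I (1.65-fold lower, adjusted p = 0.0313) and -1.11 ± 0.24 in OT-II cells (2.16-fold lower, 0.0149). The OT-I call was lost without A8B1-OVA replicate 1 (0.0769) or 2 (0.135), saline replicate 1 (0.113) or 3 (0.116), and without the libraries with raised markers (0.0685). The OT-II call was lost without A8B1-OVA replicate 2 (0.0594) or saline replicate 3 (0.0529).

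With free OVA, Dusp10 spread widely between libraries. The molar-equivalent libraries stood at 174, 101 and 123 CPM in OT-I and 309, 196 and 174 CPM in OT-II cells. The higher-dose libraries stood at 129, 109 and 90.7 CPM in OT-I and 271 and 174 CPM in OT-II cells. Each of these libraries was above every A8B1-OVA library of its cell type. Only the OT-I difference between A8B1-OVA and the molar-equivalent dose was called, at -0.68 ± 0.20 (adjusted p = 0.0428). That call was lost without any 1 of the A8B1-OVA libraries (0.0965, 0.164 and 0.0563), without molar-equivalent replicate 1 (0.168, where the difference shrank to -0.44) or 3 (0.0612), and with only the 2 groups in the fit (0.122). The OT-II difference from the molar-equivalent dose was -0.83 ± 0.23 (adjusted p = 0.0577), and those from the higher dose were -0.41 ± 0.20 in OT-I (0.285) and -0.80 ± 0.26 in OT-II cells (0.188).

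Dusp1 encodes a nuclear phosphatase of p38, JNK and ERK and is an immediate early gene that handling and stress also induce. In OT-I cells it stood at 104, 41.7 and 47.96 CPM after A8B1-OVA and at 181, 182 and 177 CPM after saline. The saline libraries lay close together, and all A8B1-OVA libraries were below them, replicate 1 the least so. The difference was -1.48 ± 0.36, or 2.79-fold lower (adjusted p = 0.0198). It was lost without A8B1-OVA replicate 2 (0.106) or without saline replicate 1, 2 or 3 (0.0533, 0.0560 and 0.0585), and held without the libraries with raised markers. Free OVA gave 137, 93.5 and 148 CPM at the molar-equivalent and 281, 108 and 147 CPM at the higher dose. A8B1-OVA differed from these by -0.97 ± 0.36 and -1.47 ± 0.36 without passing the test (adjusted p = 0.104 and 0.0535), although it did not overlap the higher dose.

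In OT-II cells the Dusp1 call turned on 1 library. The A8B1-OVA libraries stood at 471, 141 and 164 CPM and the saline libraries at 436, 529.8 and 390.5 CPM. Replicate 1 lay inside the saline range and the other 2 A8B1-OVA libraries were below every saline library. The difference was -0.81 ± 0.41 (adjusted p = 0.297) with all libraries and -1.57 (adjusted p = 0.0194) without A8B1-OVA replicate 1. Molar-equivalent OVA gave 317, 208 and 357 CPM and higher-dose OVA 406 and 181 CPM, ranges that overlapped that of A8B1-OVA.

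Of the handling-stress genes called after A8B1-OVA against saline, most were lower, the direction of Dusp1. On the plain library total, the summed level of 24 such genes (immediate early and heat shock genes, without Dusp1) was 8047 to 9910 CPM in OT-I A8B1-OVA and 12635 to 15099 CPM in OT-I saline libraries. In OT-II cells it was 11014 to 18516 CPM after A8B1-OVA and 17740 to 22918 CPM after saline, and the highest A8B1-OVA value was that of replicate 1, the library with the high Dusp1 level. In OT-I cells higher-dose OVA replicate 1 had the highest Dusp1 level and a stress sum of 14771 CPM, against 8953 and 9374 CPM in replicates 2 and 3. The sums of replicates 2 and 3 lay within the OT-I A8B1-OVA range. Their Dusp1 levels with TMM factors, 108 and 147 CPM, were above every OT-I A8B1-OVA library (104, 41.7 and 47.96 CPM). Molar-equivalent OVA replicate 2, with a stress sum of 9518 CPM, had Dusp1 at 93.5 CPM, within the A8B1-OVA range. Higher-dose OVA replicate 1 was also the OT-I library with raised Cd4 markers, at a sum of 258 CPM. After saline, OT-II libraries had higher Dusp1 levels and stress sums than OT-I libraries. The part of CD4 cells in the values of that replicate was not tested. Of the 24 genes, 10 were called lower and 1 higher after A8B1-OVA than after saline in OT-I cells, beside 4.43% and 7.07% of all genes. In OT-II cells 6 were called lower and 2 higher, beside 2.88% and 4.4% of all genes. Among them Klf6 differed by -1.50 ± 0.21 and -1.22 ± 0.21 in OT-I and OT-II cells (adjusted p = 0.000779 and 0.00384) and Junb by -1.58 ± 0.32 and -1.33 ± 0.33 (0.00675 and 0.0283). Hspe1 was among those called higher in OT-II cells (0.41 ± 0.11, adjusted p = 0.0383). The part of handling in the Dusp1, Dusp5 and Dusp10 differences was not tested.

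**Figure D2:**
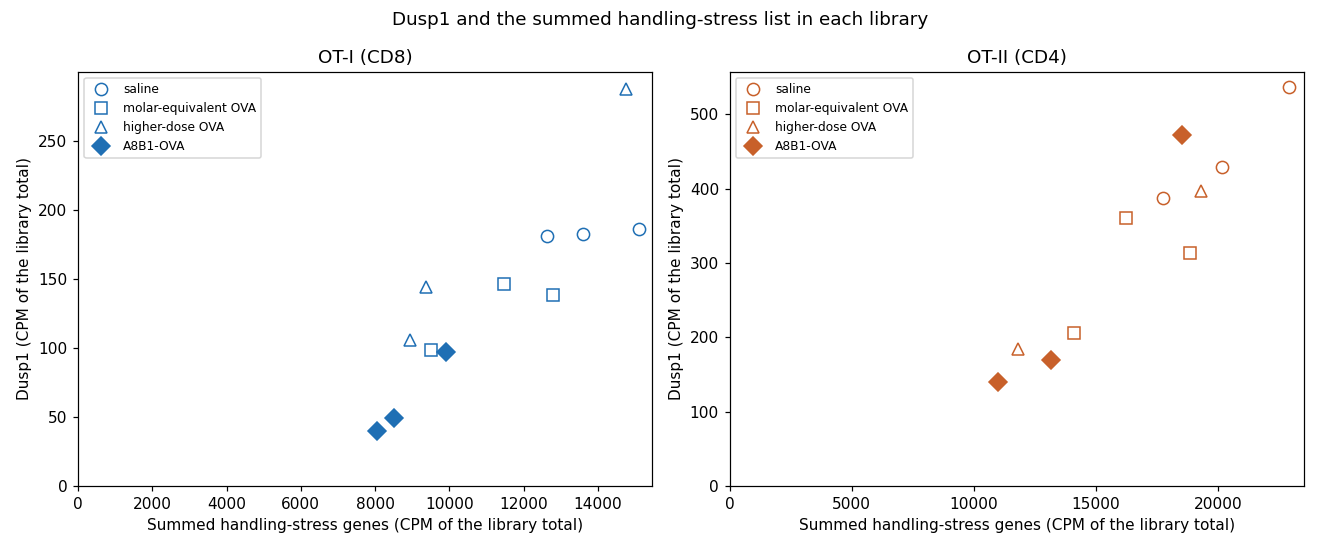
Dusp1 (y axis, CPM of the library total) against the summed level of 24 handling-stress genes (x axis, CPM of the library total) in each OT-I (left) and OT-II (right) library, with the treatment given by the symbol. The OT-I A8B1-OVA libraries sit at 8047 to 9910 CPM of stress genes and are below the saline libraries on both axes, whereas OT-II A8B1-OVA replicate 1 sits among the saline libraries.

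Dusp2 and Dusp4, nuclear phosphatases induced on activation, gave no call against saline. Dusp2 stood at 487, 350.2 and 358 CPM after A8B1-OVA and 331, 375 and 327 CPM after saline in OT-I cells, and at 735, 548 and 540.4 and 493, 566 and 493 CPM in OT-II cells. These groups overlapped, and the differences were 0.21 ± 0.17 and 0.23 ± 0.16 (adjusted p = 0.457 and 0.449). Over all 23 libraries Dusp2 ran from 295 to 735 CPM. In OT-II cells A8B1-OVA was above the molar-equivalent and the higher dose without overlap, by 0.39 ± 0.16 and 0.47 ± 0.18, which did not pass the test (0.176 and 0.283).

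Dusp4 was expressed at a low level throughout. In OT-I cells it stood at 5.89, 8.01 and 3.56 CPM after A8B1-OVA, 3.82, 2.08 and 2.19 CPM after saline and 1.90, 2.29 and 1.88 CPM with molar-equivalent OVA. The A8B1-OVA libraries were all above the molar-equivalent ones and overlapped the saline ones, because saline replicate 1 lay above A8B1-OVA replicate 3. Dusp4 was called higher than with molar-equivalent OVA, by 1.53 ± 0.36 or 2.88-fold (adjusted p = 0.0163), a call lost without A8B1-OVA replicate 2 (0.0833), without molar-equivalent replicate 1 (0.0543) and with only the 2 groups in the fit (0.0521). Against saline the difference was 1.11 ± 0.35 (adjusted p = 0.0588), which passed without A8B1-OVA replicate 3 (0.0167), without saline replicate 1 (0.0415) and by DESeq2 (0.0130). Higher-dose OVA gave 4.95, 3.13 and 5.10 CPM in OT-I cells, within the range of A8B1-OVA or just below it. In OT-II cells Dusp4 stood at 5.27, 4.73 and 1.69 CPM after A8B1-OVA and 3.51, 2.17 and 1.72 CPM after saline, a difference of 0.66 ± 0.46 (adjusted p = 0.467) between groups that overlapped. Free OVA gave 1.48, 2.78 and 1.61 CPM at the molar-equivalent and 3.36 and 5.90 CPM at the higher dose there, and A8B1-OVA differed from these by 1.00 ± 0.46 and -0.25 ± 0.51 (adjusted p = 0.251 and 0.908).

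Spry1 encodes Sprouty1, an inhibitor of RAS and ERK signalling that restrains signalling from the T cell receptor. It showed the widest change of the 10 genes in both cell types. In OT-I cells it stood at 23.6, 22.9 and 16.3 CPM after A8B1-OVA and at 3.01, 1.20 and 1.81 CPM after saline. In OT-II cells it stood at 37.03, 34.3 and 24.6 CPM after A8B1-OVA and 7.10, 7.20 and 3.24 CPM after saline. The lowest A8B1-OVA library was well above the highest saline library in each cell type. The means were 20.9 ± 3.995 against 2.01 ± 0.919 CPM in OT-I cells (SD, n = 3 each), a difference of 3.38 ± 0.50 or 10.4-fold (adjusted p = 0.000931). In OT-II cells they were 31.99 ± 6.54 against 5.85 ± 2.26 CPM, a difference of 2.45 ± 0.39 or 5.46-fold (0.00281). Both calls held in every alternative tried, which include leaving out each library of the 2 groups.

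Spry1 stood lower with free OVA at either dose. With molar-equivalent OVA it was at 1.76, 2.29 and 1.19 CPM in OT-I and 2.19, 5.22 and 4.45 CPM in OT-II cells, and A8B1-OVA exceeded it by 3.59 ± 0.51 (0.000970) and 3.02 ± 0.40 (0.00116), calls that also held in every alternative tried. With higher-dose OVA it was at 5.43, 1.85 and 8.81 CPM in OT-I and 4.20 and 8.46 CPM in OT-II cells. The higher-dose libraries ranged from within the saline range to above it and were below all A8B1-OVA libraries. A8B1-OVA exceeded the higher dose by 1.96 ± 0.47 in OT-I (3.90-fold, adjusted p = 0.0496) and 2.34 ± 0.45 in OT-II cells (5.06-fold, 0.0313). The OT-I call lies at the threshold and was lost in 9 of 12 alternatives. Among them were RLE library factors (0.0501), only the 2 groups in the fit (0.0636), leaving out the libraries with raised markers (0.152), and leaving out A8B1-OVA replicate 1 (0.119) or 2 (0.205) or higher-dose replicate 1 (0.159), 2 (0.0883) or 3 (0.0575). The OT-II call was lost in 6 of 11, among them leaving out A8B1-OVA replicate 1 (0.0911) or 2 (0.0832), either higher-dose library (0.304 without replicate 2 and 0.113 without replicate 3, where the lone library left is assumed to vary like the others), and the libraries with raised markers (0.0504). In all of these the difference stayed at 1.59 or more in OT-I and 1.93 or more in OT-II cells.

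Spry2, Spred1 and Spred2 gave no call for any treatment. Spry2 had 1 to 31 counts per library, in 4 of the 23 libraries at or under the floor of 3 counts, so no fold is given. OT-I libraries had 1, 4 and 4 counts with higher-dose OVA and 13, 31 and 10 counts after saline, groups that did not overlap but whose difference did not pass the test (adjusted p = 0.474). Spred1, which recruits neurofibromin to switch off RAS, stood at 10.1, 12.4 and 16.9 CPM after A8B1-OVA and 13.3, 17.3 and 13.6 CPM after saline in OT-I cells, which overlapped (difference -0.16 ± 0.21, adjusted p = 0.671). In OT-II cells it stood at 6.96, 6.64 and 8.55 CPM after A8B1-OVA and 5.34, 5.40 and 4.36 CPM after saline, without overlap but with an adjusted p of 0.212 for a difference of 0.55 ± 0.24. With free OVA Spred1 stood at 11.3, 13.3 and 9.04 CPM (molar-equivalent) and 11.3, 11.1 and 11.3 CPM (higher dose) in OT-I cells. In OT-II cells it stood at 7.34, 4.37 and 6.66 CPM and 7.42 and 5.77 CPM. These libraries overlapped those of A8B1-OVA of the same cell type. Spred2, a protein of the same kind, ran from 7.93 to 17.3 CPM in OT-I and from 6.51 to 13.01 CPM in OT-II libraries. Its differences between A8B1-OVA and saline were -0.21 ± 0.25 and -0.13 ± 0.28 (adjusted p = 0.640 and 0.853), between groups that overlapped.

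**Figure D3:**
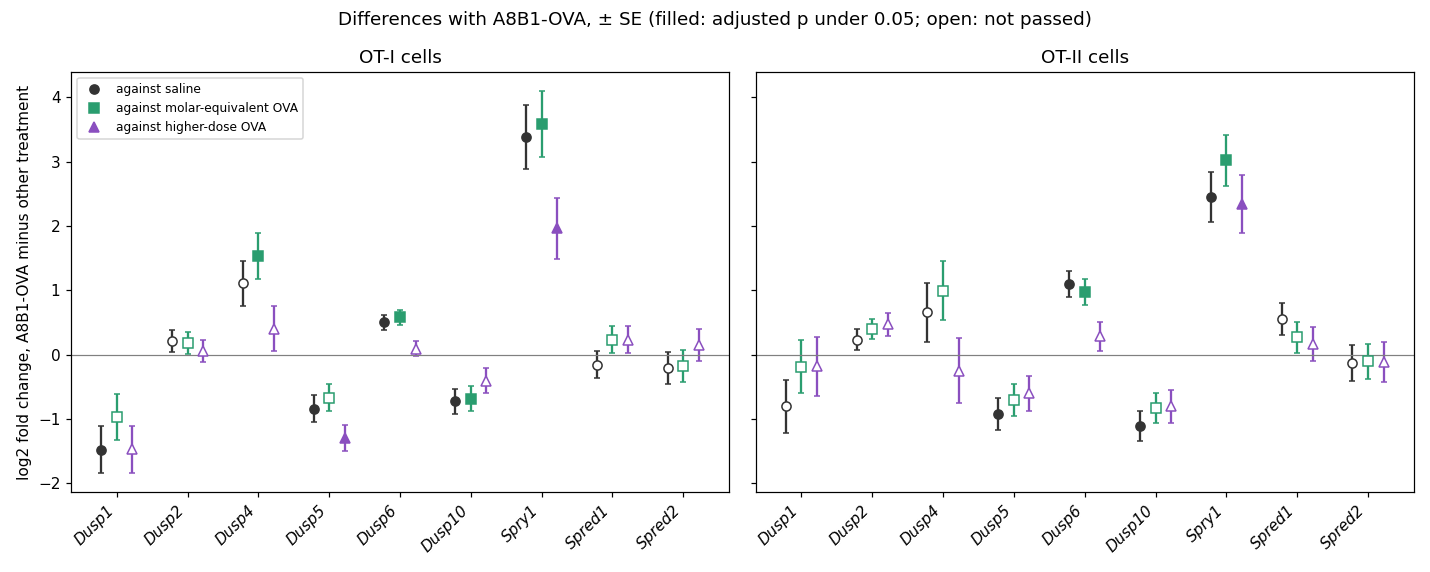
Log2 difference of A8B1-OVA minus each other treatment (y axis, bars ± SE) for 9 of the genes (x axis; Spry2 left out for its low counts) in OT-I (left) and OT-II (right) cells. Filled symbols passed at an edgeR adjusted p under 0.05; Spry1 passed in all 6 comparisons and lies at 1.96 or above in each.

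Counted by comparison, the test of A8B1-OVA against the molar-equivalent dose called 4 of the 10 genes in OT-I cells (3 higher and 1 lower, with 10.6% of all genes called) and 2 in OT-II cells (both higher, with 6.36% called). Against higher-dose OVA it called 2 in OT-I cells (Spry1 higher and Dusp5 lower, with 2.41% called) and 1 in OT-II cells (Spry1, with 1.34% called). These comparisons and those with saline share the same A8B1-OVA libraries, so that their calls are not separate observations.

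Between the treatments other than A8B1-OVA edgeR called 0 of the 10 genes. For higher-dose OVA against saline in OT-I cells, 2.41% of all genes were called. An unadjusted p under 0.05 was found for 3 of the 10 genes and for 1730 of all 14080. DESeq2 called 2 of the 10, Dusp6 and Spry1, and 721 of all genes. For the higher against the molar-equivalent dose in OT-I cells, 1.04% of all genes were called. Here 4 of the 10 genes and 1732 of all genes had an unadjusted p under 0.05. DESeq2 called 3 of the 10, Dusp4, Dusp6 and Spry1, and 617 of all genes. For molar-equivalent OVA against saline in OT-I cells, 0% of all genes were called, and 0 of the 10 had an unadjusted p under 0.05 or a DESeq2 call. Of all genes, 266 had such an unadjusted p. In OT-II cells DESeq2 also called 0 of the 10 genes in the corresponding comparisons. There 0.0271% of all genes were called for higher-dose OVA against saline (1 of the 10 genes at an unadjusted p under 0.05, Dusp6), 0% for molar-equivalent OVA against saline (0 of 10) and 0% for higher-dose against molar-equivalent OVA (2 of 10, Dusp4 and Dusp6). Such an unadjusted p was found for 872, 577 and 792 of all 14757 genes in these comparisons. The Spry1 differences of higher-dose OVA from saline were 1.42 ± 0.47 in OT-I (adjusted p = 0.185) and 0.11 ± 0.42 in OT-II cells (0.992).

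OT-I and OT-II cells differed in their levels of these inhibitors already after saline. Levels here are on the scale of the fit of all 23 libraries, and 5 of the 10 genes were called, 2 higher and 3 lower in OT-I, where 15.5% of all 15235 genes were called. Spred1 was 3.15-fold higher in OT-I cells (mean 15.3 against 4.85 CPM, log2 difference 1.66 ± 0.23, adjusted p = 2.46e-05) and Dusp6 1.71-fold higher (0.77 ± 0.17, 0.00303). Dusp5 was 2.62-fold lower (-1.39 ± 0.25, 0.000541), Dusp10 1.86-fold lower (-0.90 ± 0.24, 0.0114) and Spry1 2.71-fold lower (-1.44 ± 0.47, 0.0423). The saline libraries of the cell types did not overlap for any of these except Spry1 on this scale. Dusp1 and Dusp2 were lower in every OT-I than in every OT-II saline library without passing the test (-1.22 ± 0.43 and -0.47 ± 0.17, adjusted p = 0.0627 and 0.0677), although Dusp2 passed by DESeq2 (0.0351). The calls for Spred1, Dusp6 and Dusp5 held in every alternative tried. Dusp10 was lost without OT-I saline replicate 2 (0.0586) and without the libraries with raised markers (0.0598). Spry1 was lost without OT-I saline replicate 2 (0.169) or 3 (0.123), OT-II saline replicate 1 (0.114) or 2 (0.131), and without the libraries with raised markers (0.102).

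After A8B1-OVA 3 of the 10 genes were called between the cell types, 1 higher and 2 lower in OT-I, with 20.6% of all genes called. Spred1 was 1.96-fold higher in OT-I cells (0.97 ± 0.22, adjusted p = 0.00394) and Dusp5 2.42-fold lower (-1.28 ± 0.25, 0.00126), and both calls held in every alternative tried. Dusp1 was 3.65-fold lower (-1.87 ± 0.44, 0.00504), which rests on OT-II A8B1-OVA replicate 1: without it the difference was -1.11 (adjusted p = 0.0683). Spry1 and Dusp6, which differed after saline, stood at differences of -0.48 ± 0.45 and 0.19 ± 0.17 after A8B1-OVA (0.4999 and 0.463). Dusp10, also called after saline, was not called after A8B1-OVA, with means of 86.7 CPM in OT-I and 122 CPM in OT-II cells. Its libraries still did not overlap, at 89.3, 81.2 and 89.6 CPM in OT-I and 147, 106 and 112 CPM in OT-II cells. Dusp2 differed by -0.47 after A8B1-OVA without passing the edgeR test (adjusted p = 0.0551), although it passed by DESeq2 (0.0314). After saline and after A8B1-OVA the summed level of the handling-stress genes was also lower in every OT-I than in every OT-II library. Of the 24 genes, 11 were called lower and 1 higher after A8B1-OVA, beside 8.34% and 12.2% of all genes. Their part in the cell type differences was not tested.

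**Figure D4:**
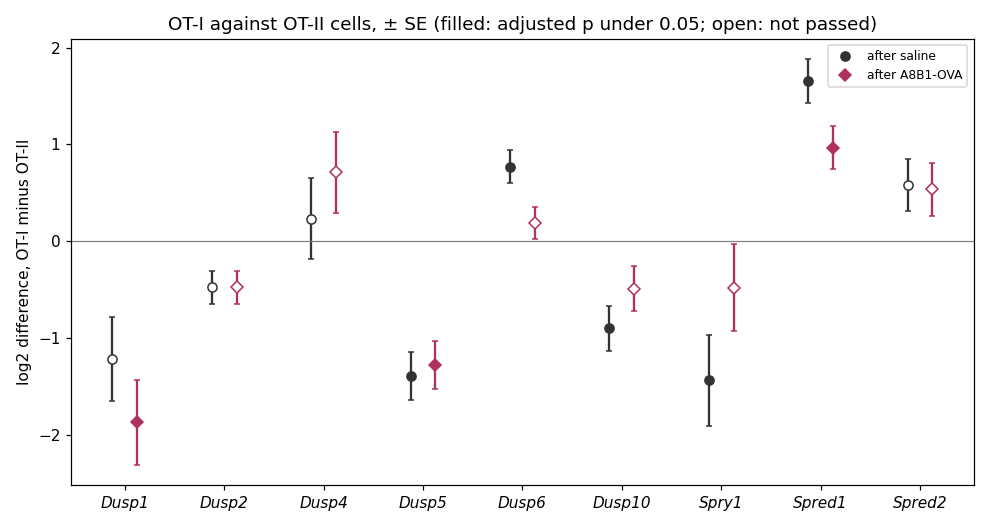
Log2 difference of OT-I minus OT-II cells (y axis, bars ± SE) after saline and after A8B1-OVA for 9 of the genes (x axis; Spry2 left out). Filled symbols passed at an edgeR adjusted p under 0.05; Spred1 was higher and Dusp5 lower in OT-I cells under both treatments.

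Whether the responses themselves differed between the cell types was tested as an interaction, and edgeR called 0 of the 10 genes in each of the 3 contrasts, as did DESeq2. For A8B1-OVA against saline 0.433% of all genes were called. An unadjusted p under 0.05 was found for 1408 of all 15235 genes and for 2 of the 10. These were Dusp6, with an OT-I minus OT-II response of -0.58 ± 0.24 (adjusted p = 0.424), and Spred1, at -0.69 ± 0.31 (0.487). For Spry1 the difference between the responses was 0.96 ± 0.64 (0.734) and for Dusp10 0.41 ± 0.33 (0.788). For A8B1-OVA against higher-dose OVA 0.00656% of all genes were called, with 0 of the 10 genes and 786 of all genes at an unadjusted p under 0.05. For higher-dose OVA against saline the share of all genes was also 0.00656%. There 772 of all genes had an unadjusted p under 0.05, and 1 of the 10, Spred1 at -0.80 ± 0.33 (adjusted p = 0.889).

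The other genes of the pathway were counted over lists, to be read beside the 11.5% of all genes called against saline in OT-I and the 7.28% in OT-II cells. Of the other MAP kinase phosphatases (Dusp3, Dusp7, Dusp8, Dusp9, Dusp14, Dusp16, Dusp22, Dusp26, Dusp28 and Styx), 9 of 10 were tested, with 1 lower and 0 higher against saline in OT-I cells and none called in OT-II cells. The one called was Dusp28, a small atypical phosphatase, at -0.72 ± 0.16 (adjusted p = 0.0109). It was also called lower with higher-dose OVA than with saline in OT-I cells (-0.77 ± 0.16, 0.0239). The median difference of these 9 was -0.13 in OT-I and -0.08 in OT-II cells. Of the other Sprouty and Spred genes, 1 of 3 was tested in OT-I cells (Spry4) and 2 of 3 in OT-II cells (Spry3 and Spry4), with 0 called against saline.

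Of 27 genes of the ERK cascade, from the RAS exchange factors to the kinases downstream of ERK, 2 were lower and 1 higher in OT-II cells against saline, and the median difference was 0.02 in OT-I and -0.05 in OT-II cells. In OT-II cells Rasgrp2, which encodes a RAP and RAS exchange factor, fell (-0.94 ± 0.09, adjusted p = 0.000175), as did Rasa3, a GTPase-activating protein gene (-0.53 ± 0.12, 0.0185), while Rasa1, another such gene, rose (0.60 ± 0.14, 0.0221). The count of 3 of 27 lies near the 7.28% called over all genes. Rasgrp2 was the one gene of this list whose response differed between the cell types, by 1.09 ± 0.15 (0.00102).

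Of the p38 and JNK cascades, 23 genes were tested in OT-I and 22 in OT-II cells. In OT-I cells 2 rose, Mapk11, a p38 kinase gene (1.10 ± 0.20, 0.00373), and Map3k5 (0.67 ± 0.19, 0.03996), and 1 fell, Gadd45a, an activator of the cascade (-1.15 ± 0.25, 0.0107). Mapk11 was also called higher with higher-dose OVA than with saline in OT-I cells (1.07 ± 0.20, 0.0146). In OT-II cells 1 rose, Mapkapk2, a kinase that p38 activates (0.98 ± 0.14, 0.00129), and 1 fell, again Gadd45a (-0.67 ± 0.17, 0.0334). These counts are near the shares called over all genes, 11.5% and 7.28%, and are no result about the list. The medians were 0.16 and -0.05.

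Among genes transcribed in response to ERK, 6 of 17 rose and 3 fell in OT-I cells against saline, and 5 of 16 rose and 3 fell in OT-II cells, with medians of 0.17 and -0.01. Over all genes 7.07% rose and 4.43% fell in OT-I cells, and 4.4% rose and 2.88% fell in OT-II cells. The genes named next are those of the list with the lowest adjusted p. All of them rose, and those that fell are not named. Egr2, an early growth response transcription factor linked to T cell anergy, rose by 1.63 ± 0.19 in OT-I (0.000206) and 2.07 ± 0.27 in OT-II cells (0.000993). Egr3, a factor of the same family, rose by 1.60 ± 0.31 (0.00583) and 1.90 ± 0.26 (0.00123). The ETS factor gene Etv5 rose by 1.27 ± 0.28 (0.0108) and 1.32 ± 0.28 (0.0140), and Elk3, a ternary complex factor gene, by 0.68 ± 0.13 (0.00515) and 0.85 ± 0.12 (0.00181). Egr1, Fos, Fosb, Ier2 and Ier3 stand in this list and in that of handling stress, so that the counts of the lists are not separate.

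Spry1, Dusp6, Dusp5 and Dusp10 were the genes called against saline in both cell types, and for each the 3 genes most alike over the 23 libraries were taken by Pearson correlation of log2 CPM, among genes with a mean of at least 10 CPM. The libraries share groups and cell types, so these values describe the pattern and carry no p. For Spry1 they were Cd200, an immunoglobulin-family surface protein gene (r = 0.91), Nab2, a corepressor of EGR factors (0.89), and Nfatc1, an NFAT transcription factor gene (0.89). For Dusp6 they were Ncapg, a condensin subunit gene (0.91), Lrmp (0.90) and Itgb2, the beta chain of LFA-1 (0.90). For Dusp5 they were Ctse, the gene of the protease cathepsin E (0.95), Rgs14, a regulator of G protein signalling (0.94), and Fam98c (0.94). For Dusp10 they were Bambi, a TGF-beta pseudoreceptor gene (0.96), Pnrc1 (0.93) and Crem, a CRE-binding transcription factor gene (0.93).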

How the data were processed

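Polyadenylated RNA of sorted cells was pooled from 3 mice per library and made into cDNA by the SmartSeq protocol, per the labels' protocols. Reads were processed with bcl2fastq and kallisto 0.46.1 on GRCm38, per the submitters' processing notes. The authors deposited estimated counts for 21900 genes in 23 libraries; the values are whole numbers, and the sources used here do not say how they were rounded or summed to genes, with which annotation release or strand setting.

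For each cell type a model with 1 coefficient for every group was fitted to counts scaled by TMM, and tested by quasi-likelihood (edgeR 4.0.16, R 4.3.3); filterByExpr left out low genes (minimum count 10, minimum total 15). Contrasts between cell types came from 1 fit of all libraries. All 12 comparisons within a cell type, 3 interactions and 2 cell type contrasts were made, with Benjamini-Hochberg adjustment over all genes tested and calls under 0.05. Means of CPM are given with SDs over libraries. Alternatives were RLE factors, no filter, DESeq2 1.42.0, a replicate block, only the compared groups in the fit, and leaving out each library; leaving out the 5 libraries with raised markers and a block of treatment and number together were added after seeing the data. The scripts were tested on simulated data.

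The 10 genes and the context lists were chosen with earlier results of these data known. All 10 genes are named, and from each list at most 4 called genes per comparison with the lowest adjusted p; the OT-I calls of the ERK cascade list are not reported here. A floor of 3 counts covers counting error only, since amplified reads that carry no molecular identifier do not count molecules.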

Additional observations from a re-analysis of the deposited data

How the results depend on the processing

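No difference of these genes that was called or had an unadjusted p under 0.05 changed sign in 658 alternative values; 63 of these lost a call and 34 gained one. Of 1504 values for the other 116 differences, 121 changed sign and 3 were called. The number of the 10 genes called moved by more than 1.5 times as follows. With RLE factors it was 1 for A8B1-OVA against the higher dose in OT-I cells. With only the compared groups in the fit it was 1 for that comparison and 1 for A8B1-OVA against the molar-equivalent dose in OT-I cells. With DESeq2 it was 2 for higher-dose OVA against saline and 3 for higher-dose against the molar-equivalent dose in OT-I cells, and in OT-II cells 2 for A8B1-OVA against higher-dose and 4 against molar-equivalent OVA. Without the libraries with raised markers it was 2 for A8B1-OVA against saline and 1 against the higher dose in OT-I cells, 0 for A8B1-OVA against the higher dose in OT-II cells and 3 between the cell types after saline. Leaving out each library gave 1 to 6 (saline), 2 to 5 (molar-equivalent) and 0 to 2 (higher dose) against A8B1-OVA in OT-I cells, 2 to 4, 1 to 3 and 0 to 1 in OT-II cells, 3 to 5 between the cell types after saline and 2 to 4 after A8B1-OVA; the other comparisons stayed at 0. The cause of these changes was not tested.

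The replicate block gave 0 for A8B1-OVA against the higher dose in OT-II cells, and among named genes Spry1 lost its call in that comparison in both cell types (adjusted p = 0.0607 in OT-I and 0.0860 in OT-II cells) and between the cell types after saline (0.0525). It added calls for Dusp1 and Dusp5 against molar-equivalent OVA and Dusp1 against the higher dose in OT-I cells, Dusp10 against the molar-equivalent dose in OT-II cells, and Dusp1 between the cell types after saline. A replicate block of treatment and number together gave 7 genes between the cell types after saline, adding Dusp1 (0.00228) and Dusp2 (0.0122), and 6 after A8B1-OVA. The labels share replicate numbers without saying what they mark. Of same-numbered pairs, 2 of 18 in OT-I and 0 of 15 in OT-II cells had correlated deviations over 0.1. Within a cell type the numbers were therefore not taken to pair the libraries. Between the cell types 6 of 11 pairs were over 0.1, with a median correlation of 0.128 against -0.0179 for pairs with other numbers. Whether same-numbered OT-I and OT-II libraries share mice is not given, and the main tests did not pair them. Calls made in both cell types may therefore not be separate observations.

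Over all genes, the 1620, 1496 and 339 calls of A8B1-OVA against saline, molar-equivalent and higher-dose OVA in OT-I cells became 2458, 2472 and 1185 with DESeq2, and the 1074, 939 and 198 in OT-II cells 1921, 1765 and 720. For higher-dose OVA against saline, 339 and 4 calls became 721 and 95, for higher-dose against molar-equivalent OVA 146 and 0 became 617 and 53, for molar-equivalent OVA against saline 0 and 0 became 1 and 24, and the 66, 1 and 1 interactions 252, 33 and 75. Without the libraries with raised markers, counts more than 1.5 times away were 977, 62, 128 and 67 in OT-I cells (A8B1-OVA against saline and higher-dose OVA, higher-dose OVA against saline and molar-equivalent OVA), 122 for A8B1-OVA against the higher dose in OT-II cells, and 31, 2 and 5 for the interactions. With only the compared groups they were 575, 210, 583 and 2 in OT-I cells (A8B1-OVA against molar-equivalent and higher-dose OVA, higher-dose OVA against saline and molar-equivalent OVA) and 90 for A8B1-OVA against the higher dose in OT-II cells. The replicate block gave 44 there. Leaving out each library gave 674 to 2569, 575 to 2181 and 38 to 1487 calls for A8B1-OVA against saline, molar-equivalent and higher-dose OVA in OT-I cells, 578 to 1011, 441 to 968 and 6 to 210 in OT-II cells, 73 to 303 for higher-dose OVA against saline and 13 to 153 against the molar-equivalent dose in OT-I cells, and 30 to 111 for the A8B1-OVA interaction, so the shares called over all genes move as much.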
